A study of Rattus norvegicus with 9 samples.

Results

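Hnf4a, Pax2, Pax8, Tfcp2l1, Esrrg and Gata3 encode transcription factors that mark segments of the nephron, and their RNA was compared in kidneys of rats given colistin methanesulfonate sodium (CMS) or vehicle. They were taken as the 11 probe sets annotated to 1 of these 6 gene symbols alone, among 31042 probe sets and 14217 genes with such a probe set. CMS is the prodrug of the polymyxin antibiotic colistin, which injures the kidney tubule. Sprague-Dawley rats, an outbred stock, were bought at 8 weeks of age, kept for 1 week, and injected intraperitoneally each day for 7 days. The 3 groups received saline vehicle (0 mg/kg, 3 rats, no lesion per the labels), 25 mg/kg CMS (CMS25, 3 rats, tubular basophilia with dilated tubules) or 50 mg/kg CMS (CMS50, 3 rats, necrosis, tubular degeneration and casts). Total RNA of the right kidney was hybridised to Affymetrix Rat 230 2.0 arrays, 1 array per rat. The deposited values are log2 intensities, so a difference of 1 is a 2-fold change, and the level of a gene cannot be set against that of another. The labels call the rats of a dose biological replicates and do not state their sex.

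In the developing kidney, Pax2 and Pax8 are paired-domain factors that act together to set up the nephric lineage, and both stay on in some adult tubule cells. Hnf4a, a nuclear receptor, drives the proximal tubule programme of transport and metabolism, whereas Esrrg, an orphan oestrogen-related nuclear receptor, supports mitochondrial and transport genes of the thick ascending limb and distal tubule. Tfcp2l1, a grainyhead-like factor, and Gata3, a zinc finger factor, belong to the distal nephron and collecting duct, and Gata3 is also a factor of T lymphocytes and mesangial cells. Whole kidney RNA mixes all of these cells, so fewer cells of a type and less RNA per cell cannot be told apart.

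Promoters of 4 of these genes are shown first. Pax8 and Pax2 are paralogues, of which only Pax8 passed the test described below at the higher dose. Hnf4a and Esrrg each had probe sets that were lower at that dose. The sequences are the 250 bases before an annotated start in RefSeq (GRCr8), written 5′ to 3′ on the gene's strand, and all 6 genes were matched there with 10 starts. Capitals mark matches, on either strand, to the 4 motifs listed after the sequences, and the Pax8 and Pax2 stretches hold none.
Pax8 (chr3:27640632-27640881, minus strand): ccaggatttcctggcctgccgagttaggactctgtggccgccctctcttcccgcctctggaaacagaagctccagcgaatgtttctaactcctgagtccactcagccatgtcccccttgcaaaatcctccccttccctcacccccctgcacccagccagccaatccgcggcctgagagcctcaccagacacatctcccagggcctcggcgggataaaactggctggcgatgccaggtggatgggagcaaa
Pax2 (chr1:253565672-253565921, plus strand): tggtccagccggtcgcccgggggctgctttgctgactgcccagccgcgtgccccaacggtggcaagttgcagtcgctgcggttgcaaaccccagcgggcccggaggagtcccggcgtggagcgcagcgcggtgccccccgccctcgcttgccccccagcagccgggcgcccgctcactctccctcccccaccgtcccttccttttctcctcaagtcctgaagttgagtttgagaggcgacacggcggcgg
Hnf4a, the first of 2 starts (chr3:172605970-172606219, plus strand): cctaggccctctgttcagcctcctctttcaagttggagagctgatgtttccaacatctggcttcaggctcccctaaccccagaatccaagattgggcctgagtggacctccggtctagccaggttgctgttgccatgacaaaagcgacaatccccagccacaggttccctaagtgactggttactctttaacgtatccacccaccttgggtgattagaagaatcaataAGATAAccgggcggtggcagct
Esrrg, the third of 4 starts (chr13:101755510-101755759, plus strand): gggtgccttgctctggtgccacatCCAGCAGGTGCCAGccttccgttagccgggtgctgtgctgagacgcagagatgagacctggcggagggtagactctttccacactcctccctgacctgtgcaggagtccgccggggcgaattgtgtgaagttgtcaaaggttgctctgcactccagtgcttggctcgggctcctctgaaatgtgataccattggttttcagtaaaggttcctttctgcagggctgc

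The motifs searched were the core AAGGTCA of an oestrogen-related receptor site, the HNF4 core CAAAGTCCA, the GATA site AGATAA and the tandem TFCP2L1 half-sites, which are 2 copies of CCAG with 6 bases between them. The first Hnf4a start had a GATA site, which 10.3% of 33469 RefSeq promoters of this length held, and the third Esrrg start had the TFCP2L1 letters, which 2.76% held. The oestrogen-related receptor core was in 3.99% of promoters and the HNF4 core in 0.338%, and neither was in any of the 10 stretches of these genes. GC content was 71.2% for Pax2, 60.8% for Pax8 and 52.4% for the first Hnf4a start, against a median of 51.2% over all promoters. Of the 10 stretches only 2 held any match, and these are the Hnf4a and Esrrg stretches printed above. The other starts of Hnf4a and Esrrg held none. All matches are of letters, and the arrays hold no binding data and do not show which start the kidney used.

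The comparison of CMS50 with vehicle asked how the higher dose changed the 6 genes. Pax8 rose 1.69-fold and Esrrg fell 1.37-fold, while Hnf4a, Pax2, Tfcp2l1 and Gata3 did not pass the test on their brightest probe set. With an adjusted p under 0.05 as the threshold (limma, Benjamini-Hochberg over 10337 genes), 2 of the 6 passed, and 31.1% of all genes tested did, so 2 of 6 is near the background. By direction, 19.6% of genes tested were higher and 11.4% lower. The groups did not overlap for 2 of the 6 genes, against 49.6% of all genes tested. Over single probe sets, fitted apart on all 31042 without an intensity minimum, 4 of the 11 were called against 15.1% of all, and 6 of 11 did not overlap against 34.9%. That background includes dim probe sets, while the dimmest of the 11 had a mean of 5.73, so the shares are not of like sets. The 11 are also repeated readings of 6 genes. All 6 genes passed the minimum mean log2 intensity of 5, on their mean over all 9 arrays. Only Pax8 stayed called in each of the 19 alternatives run for it (adjusted p from 0.00272 to 0.0307). Beside these results, macrophage markers summed to linear intensities of 1900 to 3650 in CMS50 against 988 to 1070 in vehicle, and the 3′ minus 5′ log2 reading of the beta-actin control was 3.58 ± 0.09 (SD, n = 3) against 2.98 ± 0.16. For the GAPDH control the reading was 0.82 ± 0.06 against 0.54 ± 0.03. Both readings had a two-sided exact permutation p of 0.1, the smallest that 3 against 3 arrays allow, and their part in the results was not tested.

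**Figure D1:**
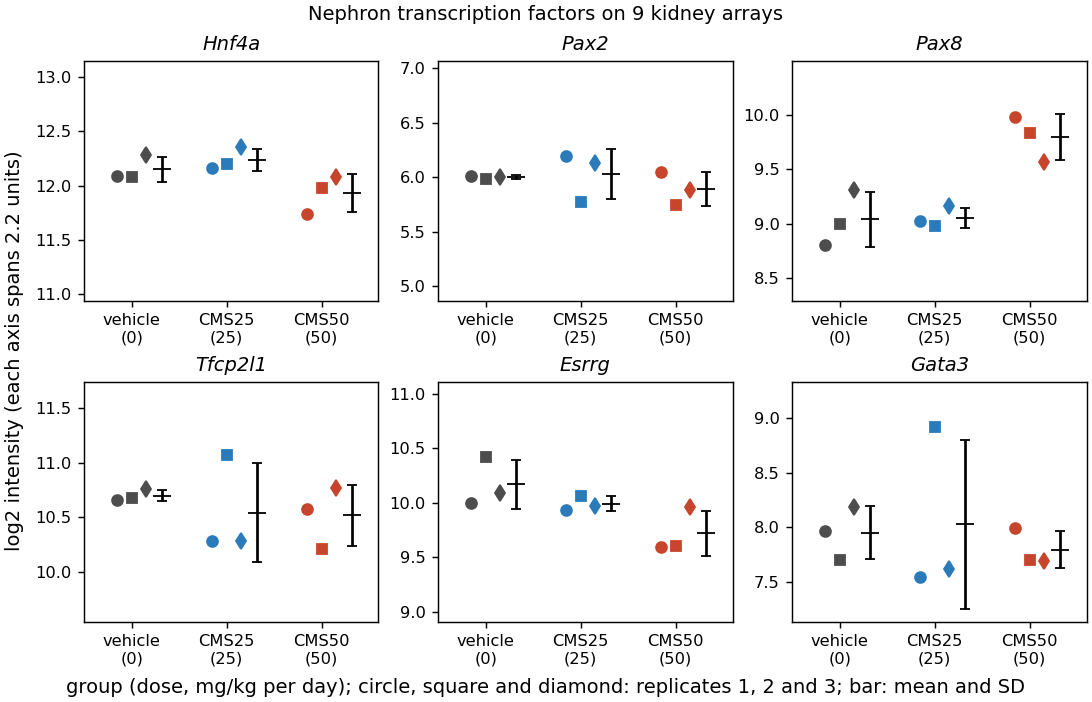
Log2 intensity of the brightest probe set of each gene on each array, by group and dose in mg/kg; circles, squares and diamonds are replicates 1, 2 and 3, and the bar gives mean and SD (n = 3). The CMS50 arrays of Pax8 sit between 9.57 and 9.98, above all vehicle arrays, and CMS25 replicate 2 stands above the other arrays for Tfcp2l1 (11.07) and Gata3 (8.92).

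Pax8, whose product is a factor of the kidney and thyroid lineages, was read by 2 probe sets. On 1378692_at the vehicle arrays were at 8.81, 9.0 and 9.31 and the CMS50 arrays at 9.98, 9.84 and 9.57 for replicates 1, 2 and 3. Every CMS50 array was thus above every vehicle array, with replicate 3 the lowest of its group. The log2 change was 0.76 (SE 0.15, adjusted p = 0.00684), from 9.04 ± 0.25 to 9.80 ± 0.21. Leaving out 1 array at a time gave changes from 0.64 to 0.89. The second probe set, 1387730_at, is dimmer, with vehicle arrays at 5.20, 5.48 and 5.69 and CMS50 arrays at 6.44, 6.63 and 5.87. It moved the same way in the fit over all probe sets (log2 change 0.86, SE 0.21, adjusted p = 0.0208). That call was lost without vehicle replicate 1 or 2 and without CMS50 replicate 1 or 2, with changes of 0.70 to 1.08 over all arrays left out and adjusted p up to 0.0826.

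Pax2, the paralogue of Pax8, has 1 probe set here, 1380117_at, and it is dim. Its vehicle arrays were at 6.01, 5.98 and 6.0 and its CMS50 arrays at 6.05, 5.74 and 5.88. CMS50 replicate 1 was above all vehicle arrays and the other CMS50 arrays were below them, so the groups overlapped. The change was -0.11 (95% interval -0.39 to 0.17, adjusted p = 0.536), and a mean of 5.97 over all arrays put Pax2 out of the test at a minimum of 6. The 2 paralogues were also compared within arrays, as Pax8 minus Pax2. This difference was 2.80, 3.01 and 3.31 on the vehicle arrays and 3.93, 4.10 and 3.69 on the CMS50 arrays, without overlap. Its mean rose from 3.04 ± 0.26 to 3.91 ± 0.21, by 0.87 (two-sided exact permutation p = 0.1, the smallest that 3 against 3 arrays allow, so the design cannot reach 0.05). At CMS25 it was 3.02 ± 0.19, and CMS50 exceeded CMS25 by 0.88 (exact permutation p = 0.1). The contrast largely repeats the Pax8 rise of 0.76, because Pax2 changed little. Pax2 also lies near background, where the array processing shrinks differences. The contrast thus cannot show that the paralogues respond differently.

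Esrrg was lower at CMS50 on both of its probe sets, by different amounts. On the brighter one, 1394577_at, vehicle arrays were at 9.99, 10.42 and 10.09 and CMS50 arrays at 9.59, 9.61 and 9.96. CMS50 replicate 3 lay just below the lowest vehicle array, and the groups did not overlap. The change was -0.45 (SE 0.14, adjusted p = 0.0355), from 10.17 ± 0.23 to 9.72 ± 0.21. This call was lost in a fit of the 2 groups alone (adjusted p = 0.0586) and in the fit over all probe sets (adjusted p = 0.0527). It was also lost without vehicle replicate 2 (-0.32), vehicle replicate 3 (-0.49), CMS50 replicate 1 (-0.39) or CMS50 replicate 2 (-0.40). Gene-level alternatives that kept this probe set had adjusted p from 0.0122 to 0.118. Those that brought in the other probe set had 0.00669 (mean of probe sets) and 0.00555 (most variable probe set).

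The other Esrrg probe set, 1381445_at, showed the fall more clearly. Vehicle arrays were at 9.20, 9.35 and 9.25 and CMS50 arrays at 8.48, 7.98 and 8.56. All CMS50 arrays were below all vehicle arrays by more than the vehicle arrays differed among themselves. The change was -0.93 (SE 0.17, 95% interval -1.31 to -0.55, adjusted p = 0.00715 over all probe sets), a 1.90-fold fall, and it stayed called in all 14 alternatives run for it (-1.04 to -0.75, adjusted p up to 0.0308). The brighter minus the dimmer probe set was 1.38 ± 0.26 in CMS50 and 0.90 ± 0.15 in vehicle, a difference of 0.48 (two-sided exact permutation p = 0.1, the smallest possible). This contrast of probe sets was chosen after the data were seen, and the files do not say which transcripts each probe set reads.

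Hnf4a depended on the probe set. Its brightest, 1392969_at, stood at 12.09, 12.07 and 12.28 on the vehicle arrays and at 11.74, 11.97 and 12.08 on the CMS50 arrays. The highest CMS50 array, replicate 3, lay between the 2 lowest vehicle arrays, so the groups overlapped. The change was -0.22 (SE 0.11, 95% interval -0.47 to 0.03, adjusted p = 0.166). On 1382496_at the vehicle arrays were at 6.84, 7.24 and 7.16 and the CMS50 arrays at 6.23, 6.21 and 6.46, without overlap. That probe set fell by 0.78 (SE 0.18, adjusted p = 0.0198 over all probe sets), and its call was lost without vehicle replicate 2 or 3 and without CMS50 replicate 1 or 2, with adjusted p up to 0.0764. The third, 1369289_at, was at 6.74, 6.96 and 6.87 in vehicle and 6.09, 6.49 and 6.59 in CMS50. It also did not overlap between groups but missed the threshold (-0.46, SE 0.15, adjusted p = 0.0667), with adjusted p from 0.0372 to 0.213 over its alternatives. With the mean of the 3 probe sets as the gene's value, Hnf4a fell by 0.49 (adjusted p = 0.0242). The brightest minus the next probe set was 5.63 ± 0.13 in CMS50 and 5.07 ± 0.21 in vehicle, higher by 0.56 (exact permutation p = 0.1), a contrast also chosen after the data were seen.

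**Figure D2:**
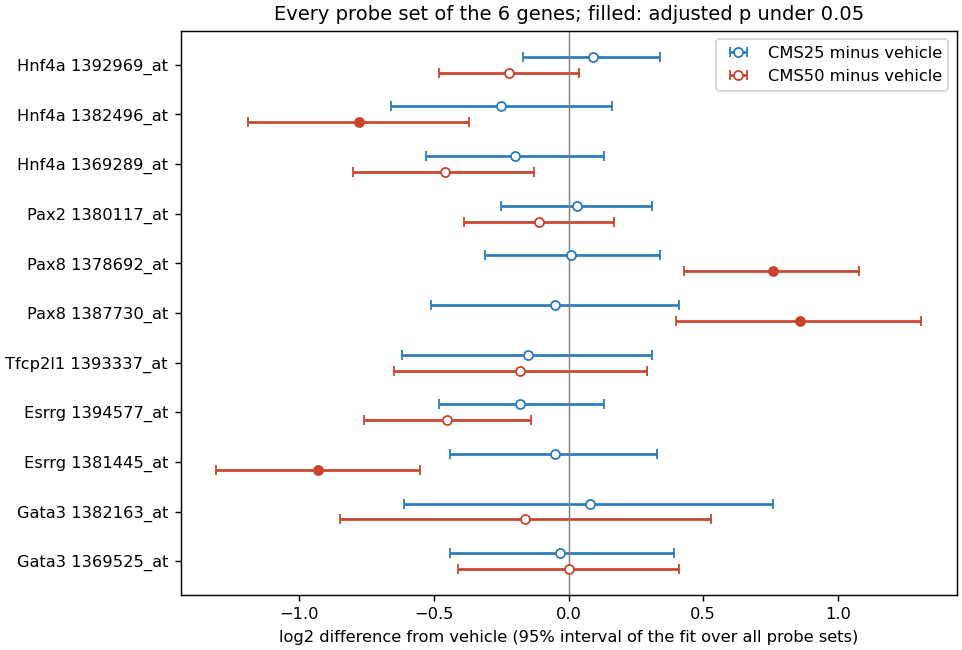
Log2 difference from vehicle for every probe set of the 6 genes at CMS25 (blue) and CMS50 (red), with 95% intervals of the fit over all 31042 probe sets; filled points have an adjusted p under 0.05 there. Both Pax8 probe sets lie to the right at CMS50 (0.76 and 0.86), and 1 Esrrg (-0.93) and 1 Hnf4a probe set (-0.78) are filled to the left, while no CMS25 point is filled; Esrrg 1394577_at is open here (adjusted p = 0.0527) and was called in the fit over genes (0.0355).

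Tfcp2l1 and Gata3, the collecting duct factors, did not pass the test at CMS50. Tfcp2l1 (1393337_at) was at 10.66, 10.68 and 10.75 on vehicle arrays and at 10.58, 10.21 and 10.76 on CMS50 arrays, a change of -0.18 (95% interval -0.67 to 0.31, adjusted p = 0.560). The vehicle arrays were close together (SD 0.05), and CMS50 replicate 2 was the low array of its group. Gata3 (1382163_at) was at 7.97, 7.70 and 8.18 in vehicle and at 7.99, 7.70 and 7.69 in CMS50, a change of -0.16 (95% interval -0.88 to 0.57, adjusted p = 0.742). Its second probe set, 1369525_at, had the same mean of 6.07 in both groups, with an interval of -0.41 to 0.41 and adjusted p = 0.999. The wide intervals do not show that Gata3 and Tfcp2l1 were the same in both groups.

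T lymphocytes, another source of Gata3 RNA, gave little signal. Of 13 markers listed for them, 12 were on the array and 3 passed the intensity minimum, Cd3e, Lck and Zap70. Of these Cd3e, a chain of the T cell receptor complex, rose by 0.68 (SE 0.17, adjusted p = 0.0157), from 4.83 ± 0.17 to 5.51 ± 0.36. Its mean was 4.98 in CMS25, so it passed the minimum of 5 only through CMS50. Lck changed by 0.32 (adjusted p = 0.0971) and Zap70 by -0.02 (adjusted p = 0.917), and neither was called. The 1 of 3 called stands beside 31.1% of all genes tested. The summed linear intensity of the 12 markers was 346 to 366 in vehicle, 367 to 374 in CMS25 and 423 to 454 in CMS50. Array probe sets give no true zero, so no marker can be called absent.

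At 25 mg/kg the comparison with vehicle asked whether the lower dose moved the same genes. None of the 6 genes was called, 0 had an unadjusted p under 0.05, and the background was 0.00% of 10337 genes called (604 genes, 5.84%, at an unadjusted p under 0.05, and 0 called by limma with trend and robust fitting). The CMS25 arrays of Pax8 were at 9.02, 8.98 and 9.16, inside the vehicle range, with a change of 0.01 (95% interval -0.32 to 0.35). Esrrg was at 9.93, 10.07 and 9.97 on 1394577_at (change -0.18, 95% interval -0.49 to 0.13) and at 9.16, 8.97 and 9.50 on 1381445_at (change -0.05, -0.44 to 0.33). Both ranges overlapped those of the vehicle arrays. Hnf4a was at 12.16, 12.20 and 12.35 (change 0.09, -0.17 to 0.34), and its dimmer probe sets changed by -0.25 and -0.20. Pax2 was at 6.19, 5.77 and 6.13, with a change of 0.03 (-0.25 to 0.31). All 6 genes and all 11 probe sets overlapped between CMS25 and vehicle, against 12.1% of genes and 12.9% of probe sets that did not overlap. For Pax8 the interval stops short of its CMS50 rise of 0.76, while that of Esrrg on 1394577_at includes its CMS50 fall of 0.45.

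The comparison of CMS50 with CMS25 asked what separated the 2 doses. It shares its arrays with the comparisons before it, and 30.3% of genes tested were called (20.8% higher), against 1 of these 6, which was higher. Among probe sets 3 of 11 were called, against 14.5% of all, and 4 of 11 did not overlap, against 33.2%. This background too includes dim probe sets, unlike the 11. Pax8 was higher by 0.74 (SE 0.15, adjusted p = 0.00744), and its second probe set by 0.91 (adjusted p = 0.0180 over all probe sets). The second Pax8 call was lost without CMS25 replicate 2 or CMS50 replicate 1 or 2 (adjusted p up to 0.0734). Esrrg missed the threshold on 1394577_at (-0.27, adjusted p = 0.156), and was lower by 0.87 on 1381445_at (SE 0.17, adjusted p = 0.00989), where all CMS50 arrays were below all CMS25 arrays. Without CMS50 replicate 3 the brighter probe set was called too (-0.39, adjusted p = 0.0497). Hnf4a was at -0.31 (SE 0.11, adjusted p = 0.0652) on 1392969_at, with every CMS50 array below every CMS25 array, and 2 of the 6 genes did not overlap between these doses against 45.7% of genes tested. It was called without CMS50 replicate 3 (-0.38, adjusted p = 0.0366), and adjusted p ran from 0.0366 to 0.202 over its alternatives. Pax2 (-0.14), Tfcp2l1 (-0.03) and Gata3 (-0.23) had adjusted p of 0.414, 0.940 and 0.608.

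Tfcp2l1 and Gata3 varied most between rats of a group at the lower dose. On CMS25 replicate 2 Gata3 was at 8.92, against 7.54 and 7.61 on the other CMS25 arrays, and Tfcp2l1 was at 11.07 against 10.28 and 10.28. That array was the highest of all 9 for both genes, and the second Gata3 probe set was also highest there, at 6.44. The same array was high for collecting duct genes as a list, which hold water and sodium channels of principal cells and proton pumps of intercalated cells. Of 18 such genes tested, 17 were above their group mean on CMS25 replicate 2, by a median of 0.65, and 14 were highest there among the CMS25 arrays. This array was picked after its values were seen, and the same counts were not made over all genes tested. Aqp2, the vasopressin-regulated water channel, was 0.67 above its group mean there, and Hsd11b2, which protects the mineralocorticoid receptor from glucocorticoid, 0.79. The array was high for other cells too. All 5 podocyte markers tested were highest there among the CMS25 arrays, by a median of 0.41 above their group mean. Of 15 thick limb and distal tubule genes 6 were above their group mean, among them Calb1, a calcium-binding protein (12.80 against 11.54 and 11.01), and Slc12a3, the thiazide-sensitive cotransporter (10.34 against 8.99 and 8.83), both named after their values were seen. Of 25 proximal tubule genes 8 were above it, and of 6 fibroblast markers 0.

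Taken as deviations from group means over the 9 arrays, Tfcp2l1 correlated with the mean of the 18 collecting duct genes at r = 0.979, and Gata3 at r = 0.872. Without CMS25 replicate 2, over 8 arrays, r was 0.932 for Tfcp2l1 and 0.495 for Gata3. The other 4 genes had r from -0.473 (Pax2) to 0.279 (Esrrg) over 9 arrays, and Pax2 had 0.642 without CMS25 replicate 2. With other lists over 9 arrays, r for Tfcp2l1 was 0.706 with thick limb and distal tubule genes, -0.604 with cell cycle genes and -0.160 with proximal tubule genes, and for Gata3 it was 0.237, -0.382 and -0.216. Esrrg had 0.589 with the thick limb and distal tubule list. Tfcp2l1 and Gata3 correlated with each other at r = 0.828, and at 0.201 without that array. The genes share the arrays and their normalisation, and these values are descriptions. Without CMS25 replicate 2, the CMS25 change of Gata3 was -0.37 in place of 0.08 (adjusted p = 0.709) and that of Tfcp2l1 was -0.42 in place of -0.15 (adjusted p = 0.708).

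**Figure D3:**
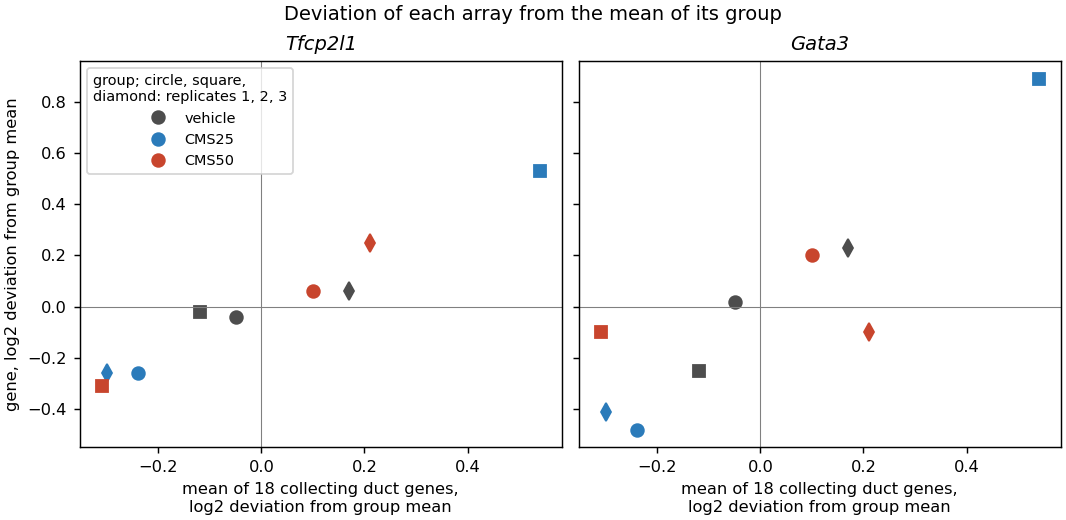
Deviation of each array from its group mean for Tfcp2l1 (left) and Gata3 (right), on the log2 scale, against the mean deviation of 18 collecting duct genes; colours are groups, and circles, squares and diamonds are replicates 1, 2 and 3. CMS25 replicate 2 lies at the upper right of both panels (0.54 for the list, 0.53 for Tfcp2l1 and 0.89 for Gata3), and the points of Tfcp2l1 lie closer to 1 line than those of Gata3.

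The genes closest in pattern were found by the Pearson correlation of log2 values over the 9 arrays among all genes tested, 3 for each gene. Pax8 was closest to Gtf2f1, a subunit of a general transcription factor (r = 0.995), Psme1, a proteasome activator subunit (0.993), and Efhd2 (0.983). Esrrg was closest to the carbonic anhydrase gene Car12 (0.958), Akap11 (0.958) and the ephrin gene Efna5 (0.957). Hnf4a was closest to Stat5b, a cytokine-activated transcription factor (0.967), Tafazzin, of cardiolipin remodelling (0.960), and Mlx (0.953). Tfcp2l1 was closest to Idh3a, a subunit of the citric acid cycle enzyme isocitrate dehydrogenase (0.969), Klhl21 (0.937) and LOC102550246 (0.929). Gata3 was closest to Asb8 (0.956), Nudt11 (0.943) and Lcmt1 (0.940), and Pax2 to Phaf1 (0.917), Arid4a (0.910) and Dph2 (0.903). These are the highest of 10337 correlations over 9 arrays, so they are high by selection, and none of the 6 genes was among the closest of another.

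Other kidney transcription factors were called in both directions at CMS50, at about the rate of all genes. Of 45 factors of nephron development and segment identity listed, 33 were on the array and 26 were tested; 3 rose, 5 fell and 18 did not pass the test, with a median change of -0.17 against 0.05 over all genes tested. Beside these 8 of 26, 31.1% of all genes tested were called, 19.6% higher and 11.4% lower. The rises were led by Sox4, a factor of progenitor cells (1.15, SE 0.21, adjusted p = 0.00519), and Elf3, an epithelial ETS factor (0.93, SE 0.14, adjusted p = 0.00306). The falls were led by Wt1, the podocyte factor (-1.36, SE 0.22, adjusted p = 0.00387), and Irx2, an Iroquois homeobox factor (-1.0, SE 0.21, adjusted p = 0.00946). Beside Wt1, the slit diaphragm gene Nphs1 fell by 1.05 and the adaptor gene Cd2ap rose by 0.69 among 5 podocyte markers tested. Podxl (-0.50), Synpo (-0.59) and Ptpro (-0.82) were lower without being called, and the median of the 5 was -0.59. The other 12 listed factors had no probe set of 1 symbol and are not analysed here. The count of 8 called ran from 7 to 12 over the alternatives, and at CMS25 no factor was called, as for all genes.

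Among 12 tested nuclear receptors and coregulators, of 15 on the array, 1 rose and 3 fell, with a median of -0.11, so that 4 of 12 were called beside 31.1% of all genes. Esrrb, the paralogue of Esrrg, fell by 0.79 (SE 0.18, adjusted p = 0.0116), and Nr3c2, the mineralocorticoid receptor, also by 0.79 (SE 0.23, adjusted p = 0.0286). The third fall was that of the coactivator gene Ppargc1b (-0.48, adjusted p = 0.0373), which was named after its value was seen. The rise was that of Nrip1, a corepressor of nuclear receptors (0.36, SE 0.12, adjusted p = 0.0462). Esrra, the third paralogue, was at -0.13 (adjusted p = 0.358), and Ppargc1a, a coactivator of these receptors, at -0.05 (adjusted p = 0.794); both were picked as partners of Esrrg and not for their values. The count of 4 was 2 without vehicle replicate 1, and 1 without vehicle replicate 2 or 3 or CMS50 replicate 1 or 2.

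**Figure D4:**
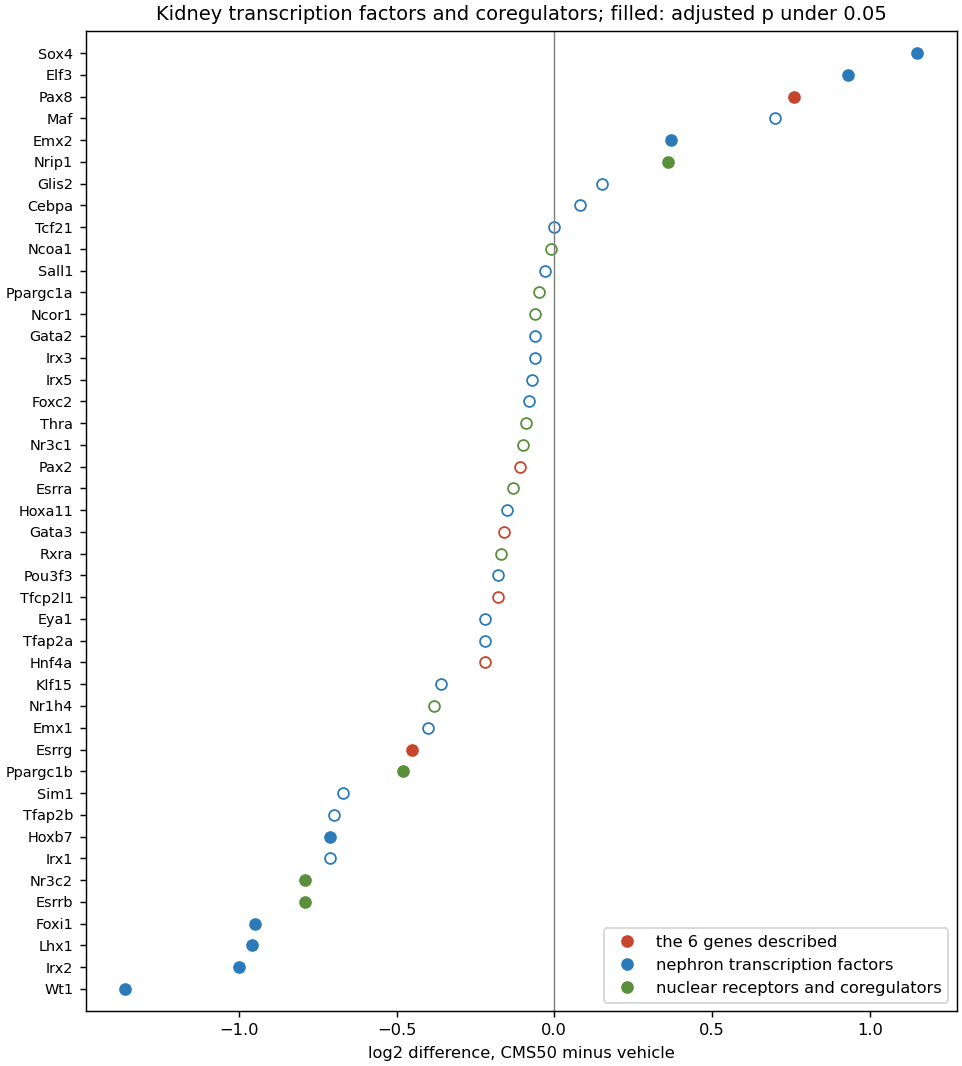
Log2 difference between CMS50 and vehicle for the 6 genes (red), 26 other nephron transcription factors (blue) and 12 nuclear receptors and coregulators (green), ordered by size; filled points have an adjusted p under 0.05 over 10337 genes. Pax8 (0.76) lies among the rises led by Sox4 (1.15), and Esrrg (-0.45) among the falls led by Wt1 (-1.36).

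Genes of the segments in which these factors act were counted beside all genes tested, of which 31.1% were called, 19.6% higher and 11.4% lower, with a median of 0.05. In the proximal tubule, the segment of Hnf4a, 4 of 25 tested genes rose and 7 fell, with a median of -0.04. The glucose transporter gene Slc2a2 rose by 2.15 (SE 0.27) and Cubn, of the endocytic receptor cubilin, by 0.90 (SE 0.16). The organic anion transporter gene Slc22a6 fell by 1.25 (SE 0.26) and Khk, of fructose metabolism, by 0.90 (SE 0.22), with adjusted p of these 4 from 0.00215 to 0.0142. The count of 11 was 7 without CMS50 replicate 1 and 5 without CMS50 replicate 2.

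In the thick limb and distal tubule, where Esrrg acts, 7 of 15 tested genes fell and 1 rose, with a median of -0.65, beside 11.4% of all genes lower and 19.6% higher. Egf, a growth factor made in the distal tubule, fell by 2.04 (SE 0.33, adjusted p = 0.00366) and the phosphatase inhibitor gene Ppp1r1a fell by 1.99 (SE 0.40, adjusted p = 0.00718). The prostaglandin receptor gene Ptger3 rose by 0.93 (SE 0.23, adjusted p = 0.0178). The distal tubule genes Slc12a3 (-0.15), Calb1 (-0.25) and Slc8a1 (-0.12) were not called (adjusted p from 0.733 to 0.845). They were named after their values were seen. The count of 8 was 5 without vehicle replicate 1, vehicle replicate 3 or CMS50 replicate 1. Of 16 tested mitochondrial genes known as targets of oestrogen-related receptors, 6 fell and 0 rose, with a median of -0.16. The 6 of 16 called stand beside 31.1% of all genes called and 11.4% lower. Acadm, of fatty acid oxidation, fell by 0.66 (SE 0.13, adjusted p = 0.00703) and Sdhd, a subunit of succinate dehydrogenase, by 0.65 (SE 0.12, adjusted p = 0.00630). That count was 3 without vehicle replicate 2 or 3 or CMS50 replicate 2, and 2 without CMS50 replicate 1.

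In the collecting duct, where Tfcp2l1 and Gata3 act, 6 of 18 tested genes fell and 0 rose, with a median of -0.38, again beside 31.1% of all genes called and 11.4% lower. Slc4a1, a chloride-bicarbonate exchanger of type A intercalated cells, fell by 1.67 (SE 0.28, adjusted p = 0.00432) and Slc26a4, pendrin of type B intercalated cells, fell by 1.56 (SE 0.42, adjusted p = 0.0230). The intercalated cell factor Foxi1, a member of the list of other nephron factors, fell by 0.95 (SE 0.30, adjusted p = 0.0399), and was named after its value was seen. Of other list genes found in intercalated cells, Atp6v1g3 (-1.35), Hepacam2 (-1.20) and Atp6v1b1 (-1.09) were called. Atp6v1c2 (-0.73), Rhcg (-0.21) and Atp6v0a4 (-0.09) were not (adjusted p of 0.0851, 0.652 and 0.593). They too were named after their values were seen. Of the water channel genes in the list, Aqp2 (-0.41), Aqp3 (-0.06) and Aqp4 (-0.33) were not called. Nor were the sodium channel genes Scnn1a (-0.65), Scnn1b (0.07) and Scnn1g (-0.25), while Fxyd4 fell by 0.96 (adjusted p = 0.0118). These channel genes and Fxyd4 were named after their values were seen. The count of 6 was 3 without vehicle replicate 1 and 2 without vehicle replicate 3 or CMS50 replicate 2. The list sums of linear intensity were 14200 to 18100 in vehicle, 12300 to 23400 in CMS25 and 9000 to 12500 in CMS50.

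Markers of other cells were counted at the higher dose beside all genes tested, of which 31.1% were called, 19.6% higher and 11.4% lower. All 11 tested macrophage markers rose at CMS50, led by Mrc1 (2.74) and C1qb (1.69), as did all 6 tested cell cycle genes, led by Mki67 (2.34) and Cdk1 (1.57). Tubular injury markers had 7 rises among 9, with Havcr1 at 6.32 and Lcn2 at 4.62, and fibroblast markers 5 among 6, with Col3a1 at 2.10 and Dcn at 1.66. Mrc1, Mki67, Ccnb1 and Havcr1 had means under 5 in vehicle (4.29, 4.74, 4.61 and 4.83) and also in CMS25. These genes passed the minimum of 5 only through CMS50, so the counts of rises among tested markers are partly set by that minimum. Linear sums of the injury markers were 2480 to 5400 in vehicle, 2100 to 4170 in CMS25 and 25300 to 41100 in CMS50. Cell cycle sums were 233 to 313, 242 to 269 and 628 to 1060 in the same order, and fibroblast sums 1730 to 1970, 1220 to 2860 and 3270 to 6900. Endothelial markers had 2 falls among 6 tested (Vwf -1.57, Emcn -0.49). Adrenal cortex markers had 1 tested of 5 on the array, with sums of 137 to 167 in vehicle, 140 to 230 in CMS25 and 106 to 150 in CMS50, and adipose markers had 1 fall among 3 (Cidec, -1.38). The 2 of 6 endothelial and 1 of 3 adipose markers called are near the share of all genes called. The part of the marker shifts in the values of the 6 genes was not tested.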

How the data were processed

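Kidney RNA of 9 rats was read on 1-colour arrays. Per the submitters' processing notes, the authors made the deposited log2 intensity values with RMA in Affymetrix Expression Console (software version: not given in the sources used here). This method gives all arrays 1 distribution, which hides a shift common to all genes and shrinks differences near background. Leaving out controls, 31042 probe sets remained, and 20826 of them carried 1 gene symbol in the platform annotation, 436 several and 9780 none; no sample column was left unused.

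A gene took its probe set of highest mean over all arrays, with a minimum mean of 5, which left 10337 genes. They were fitted over the 3 groups with limma 3.58.1 in R 4.3.3 (lmFit, eBayes) and adjusted by Benjamini-Hochberg over all of them, with calls at 0.05 and 95% intervals. A second fit took every probe set. The code was tested on simulated data. Single values were compared with two-sided exact permutation tests. Of each further list, the 2 largest called rises and 2 largest called falls at CMS50 were named, others where said. Members and lists were chosen with earlier results of these data known. Alternatives changed the scaling, minimum, probe set rule, variance model, array weights, arrays fitted and replicate block. The number of arrays limits precision.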

Additional observations from a re-analysis of the deposited data

How the results depend on the processing

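Pax8 kept its direction and its call in all 19 alternatives at CMS50 against vehicle (0.64 to 0.89), and 0 of the 6 genes were called at CMS25 under any alternative. Of 6 genes, 2 were called at CMS50 against vehicle; the count was 1 with only the 2 groups compared, 3 with the mean of probe sets, the most variable probe set or any called probe set, and 1 to 2 with 1 array left out. Against CMS25 it was 1, but 2 with the mean of probe sets, with the most variable probe set, with the replicate block, and with any called probe set counted (this last alternative was chosen after seeing the data), and 1 to 3 with 1 array left out.

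With 1 array left out, calls at CMS50 against vehicle ran from 1633 to 3522 for all genes, 1 to 4 for nuclear receptors and coregulators, 5 to 11 for proximal tubule, 2 to 8 for collecting duct, 5 to 9 for thick limb and distal tubule and 2 to 6 for mitochondrial genes. A fit on 8 arrays has less power by construction.

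Signs turned only among values that missed the threshold. With the mean of probe sets and the most variable probe set, the CMS25 changes were -0.12 and -0.25 for Hnf4a and -0.02 and -0.05 for Pax8, which was -0.01 with array weights. Gata3 probe set 1369525_at was at -0.04 (CMS50 minus vehicle) and -0.02 (CMS50 minus CMS25) after cyclic loess, and 0.00 (CMS25 minus vehicle) with array weights; the cause was not tested.

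With 1 array left out, CMS25 minus vehicle ran from -0.05 to 0.16 for Pax2, -0.10 to 0.15 for Pax8, -0.18 to 0.10 for Pax8 probe set 1387730_at, -0.37 to 0.32 for Gata3, -0.22 to 0.13 for Gata3 probe set 1369525_at, -0.20 to 0.07 for Esrrg probe set 1381445_at, -0.14 to 0.12 for Pax8 minus Pax2 and -0.28 to 0.03 for the Esrrg probe set difference. CMS50 minus CMS25 ran from -0.16 to 0.24 for Tfcp2l1, -0.47 to 0.21 for Gata3 and -0.13 to 0.22 for probe set 1369525_at, which ran from -0.15 to 0.08 for CMS50 minus vehicle.

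The deviations showed no clear pairing of rats by replicate number. Of 9 same-numbered pairs, 3 correlated over 0.1 (-0.183 to 0.263), and in 7 of 18 cases an array was closest to its own number. With 3 arrays a group, this check cannot decide whether the numbers carry a pairing or a batch. With the replicate block Hnf4a was called at CMS50 minus CMS25 (-0.31, adjusted p = 0.0416), and Hnf4a probe sets 1369289_at (CMS50 minus vehicle, -0.46, adjusted p = 0.0477) and 1382496_at (CMS50 minus CMS25, -0.53, adjusted p = 0.0397) were too. Pax2 was not tested at a minimum of 6. Dim probe sets, such as those of Pax2 and the second of Pax8, lie nearest to background, where RMA compresses changes.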
